A study of Mus musculus with 12 samples.

Results

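The nuclear receptors are transcription factors that sense small lipophilic molecules such as fatty acids, sterols, bile acids, vitamins and hormones. The genes described here are 37 listed members of the superfamily, without the clock receptors and Nr0b2, found by symbol in the adult table and by Entrez Gene identifier in the neonate table. All 37 listed symbols were found, among 23319 genes present in both tables. The study sequenced RNA of the entire small intestine, frozen and pulverized, from C57BL/6 mice in 4 groups of 3 libraries, and each library was a pool of RNA from 2 mice. The groups were mice labelled as intestinal NCoR1 knockouts (KO) at 10 weeks of age (KO adults), wild type (WT) mice of the same age (WT adults), KO mice at 12 days of age (KO neonates) and WT mice of that age (WT neonates). The strains are named F/FUN and DIECUN in the study's design text, and neither the strain of each group nor the promoter behind the deletion was stated in the labels used here.

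A classical nuclear receptor binds DNA next to its target genes, often as a pair with a retinoid X receptor (RXR), and recruits corepressors or coactivators depending on its ligand. NCoR1 is one of these corepressors: it bridges unliganded receptors to a histone deacetylase complex. In the small intestine, members of the family are known for switching genes of fat oxidation (PPARs), sterol export (LXRs), bile acid transport (FXR), drug clearance (PXR and CAR), calcium uptake (VDR) and absorptive cell identity (HNF4). The study compared KO with WT mice at both ages. Mice of 12 days are still suckling milk, and mice of 10 weeks eat solid food.

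Among the 37 genes, 5 were called in KO against WT animals at both ages: Ppara, Ppard, Nr1h4 and Nr1i2 were higher and Nr1h3 was lower. The share of all genes called at both ages was not counted, so this count has no background beside it. A promoter window of each is shown because these genes were called at both ages. A window of Rxra is shown because its KO effect differed between the ages. Each window is the 250 bases before a RefSeq transcript start in build GRCm38.p6, written 5′ to 3′ on the strand of the gene, and capitals mark the half-site AGGTCA, the core element recognised by many receptors of the family, on either strand.
Ppara (chr15:85735526-85735775, plus strand): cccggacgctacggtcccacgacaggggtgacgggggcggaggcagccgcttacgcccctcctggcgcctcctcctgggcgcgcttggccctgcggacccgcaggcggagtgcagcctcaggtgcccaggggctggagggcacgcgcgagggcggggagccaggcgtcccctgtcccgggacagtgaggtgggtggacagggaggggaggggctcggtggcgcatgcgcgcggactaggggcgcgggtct
Ppard (chr17:28232504-28232753, plus strand): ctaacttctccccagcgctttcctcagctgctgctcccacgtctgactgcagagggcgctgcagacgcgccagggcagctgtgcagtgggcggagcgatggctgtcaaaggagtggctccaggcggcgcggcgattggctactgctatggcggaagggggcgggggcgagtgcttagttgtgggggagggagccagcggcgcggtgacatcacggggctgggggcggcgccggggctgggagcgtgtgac
Nr1h4 (chr10:89506659-89506908, minus strand): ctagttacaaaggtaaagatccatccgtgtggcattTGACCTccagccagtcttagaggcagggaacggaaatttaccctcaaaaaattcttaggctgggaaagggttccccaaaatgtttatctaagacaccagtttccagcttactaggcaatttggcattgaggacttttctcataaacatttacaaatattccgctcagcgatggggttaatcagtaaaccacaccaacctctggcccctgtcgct
Nr1i2 (chr16:38294825-38295074, minus strand): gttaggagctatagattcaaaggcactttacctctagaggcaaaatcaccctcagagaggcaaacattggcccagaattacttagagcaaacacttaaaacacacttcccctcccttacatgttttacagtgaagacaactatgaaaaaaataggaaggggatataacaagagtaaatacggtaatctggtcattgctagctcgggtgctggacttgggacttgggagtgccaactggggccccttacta
Nr1h3 (chr2:91195036-91195285, minus strand): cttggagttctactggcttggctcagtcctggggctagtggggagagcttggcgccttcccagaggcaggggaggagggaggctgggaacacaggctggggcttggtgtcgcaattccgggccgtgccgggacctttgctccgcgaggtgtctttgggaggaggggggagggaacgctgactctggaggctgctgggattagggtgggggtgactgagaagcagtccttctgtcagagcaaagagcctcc
Rxra (chr2:27709042-27709291, plus strand): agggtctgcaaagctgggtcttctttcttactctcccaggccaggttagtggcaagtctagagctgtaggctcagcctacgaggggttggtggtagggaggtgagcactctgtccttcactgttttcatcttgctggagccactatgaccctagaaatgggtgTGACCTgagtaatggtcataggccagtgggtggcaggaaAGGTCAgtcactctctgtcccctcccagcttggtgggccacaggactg
The half-site begins at base -214 from the start in the printed Nr1h4 window and at bases -87 and -48 in the printed Rxra window. It is not in the other windows printed. RefSeq windows were found for 34 of the 37 genes, all but Hnf4g, Nr3c1 and Thra. These 34 genes had 54 windows, so some had more than 1 transcript start. Printed starts were not compared with the starts of the entries whose reads were counted. A printed window may therefore lie before another start of its gene, inside the counted entry or outside it. Of the 54 windows, 9 held the half-site, against 14% of the 32851 windows of all genes. The windows of 8 genes held it, namely Nr1h4, Nr5a2, Nr6a1, Pparg, Rarg, Rxra, Rxrg and Thrb. Direct repeats of the half-site with a spacer of 1 (AGGTCANAGGTCA), 3 (AGGTCANNNAGGTCA), 4 (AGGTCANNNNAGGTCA) or 5 bases (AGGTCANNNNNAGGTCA) were searched on both strands and found in 0 of the 54 windows, against 0.0335%, 0.00609%, 0.0152% and 0.00913% of all windows. Every repeat contains the half-site, so these matches overlap by construction. A match describes the letters in the window and no binding was measured.

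Sequencing depth, as whole reads in genes recovered from the deposited values, in units of 1e+06 reads, was 11.9 to 13.1 in KO adults, 9.78 to 11.8 in WT adults, 5.93 to 8.31 in KO neonates and 8.44 to 9.34 in WT neonates. Levels are given as CPM, the reads of a gene per 1e+06 reads in genes of that library. Ncor1, the targeted gene, had 159, 168 and 164 CPM in the KO adult pools, against 239.5, 252 and 245 CPM in the WT adult pools (log2 difference -0.58, SE 0.0735, limma, adjusted p = 0.000210). It had 245, 213 and 235 CPM in the KO neonate pools, against 447, 459 and 451 CPM in the WT neonate pools (log2 difference -0.97, SE 0.0563, adjusted p = 1.73e-10). These are levels of the whole gene in the entire small intestine. The part of cells outside a targeted cell type in the transcript left in KO pools was not tested. All 10 listed markers of intestinal epithelium were detected, with a summed level of 13651 to 14231 CPM in KO adults, 14168 to 15023 CPM in WT adults, 6455 to 7046 CPM in KO neonates and 5916 to 6315 CPM in WT neonates.

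Levels per kilobase of exon reached from 0.0258 to 217 CPM over the family in KO adults and from 0.0539 to 150.4 CPM in WT neonates. In adults the most abundant transcripts were Hnf4g and Hnf4a, which encode the HNF4 factors of absorptive cells. Hnf4g averaged 217 ± 22.1 CPM per kilobase in KO adults and 229.8 ± 38.8 in WT adults, and Hnf4a averaged 205 ± 23.0 in KO adults and 196 ± 10.2 in WT adults (SD, n = 3 each), so the order of these neighbours was not resolved in either group. Vdr, the vitamin D receptor, followed with 142 ± 11.4 CPM per kilobase in KO adults and 113 ± 5.13 in WT adults. Esrra, the estrogen-related receptor that drives mitochondrial genes, came next with 108 ± 9.24 in KO adults and 104 ± 5.76 in WT adults. The pools of Vdr and Esrra overlapped in WT adults and did not in KO adults. In neonates Hnf4a led with 155 ± 7.82 CPM per kilobase in KO pools and 150.4 ± 3.06 in WT pools, followed by Nr1h4, the bile acid receptor FXR, with 89.8 ± 5.79 in KO pools and 76.3 ± 0.394 in WT pools. Esrra averaged 64.5 ± 0.569 and Hnf4g 63.9 ± 2.10 CPM per kilobase in WT neonates, and their order was not resolved within the SD of Hnf4g. At the low end Rxrg averaged 0.0258 CPM per kilobase in KO adults, 0.0568 in WT adults, 0.0775 in KO neonates and 0.0539 in WT neonates, on 0 to 2 reads per library.

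**Figure D1:**
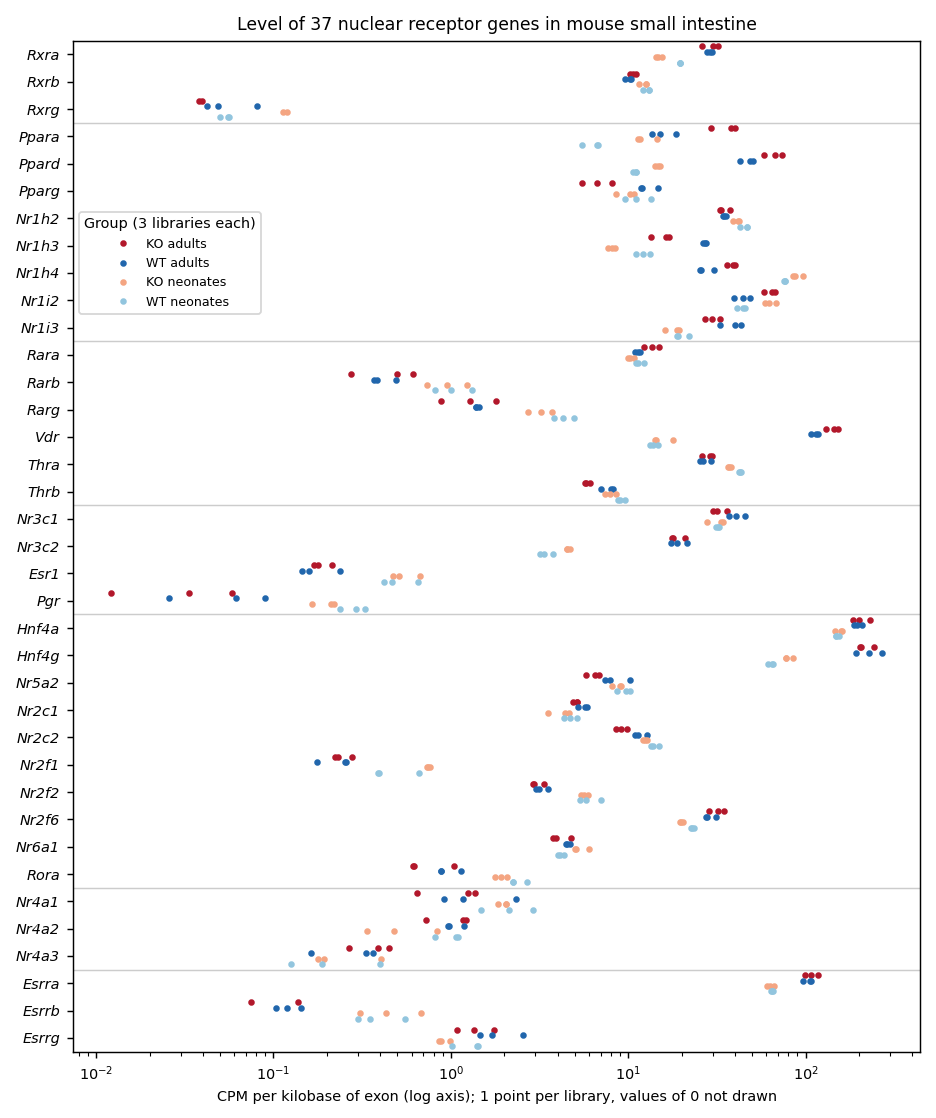
Level of each of the 37 genes in CPM per kilobase of exon (log axis), 1 point per library, 3 libraries per group, with genes grouped by subfamily and values of 0 not drawn. Hnf4g, Hnf4a, Vdr and Esrra sit highest in adults, and the adult points of Vdr, Ppard and Nr3c2 lie apart from the neonate points.

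Several receptors stood at clearly different levels in the adult and neonate tables. Because the tables were scaled separately and hold 1 age each, age and table cannot be told apart, and these levels are a description with no test. Vdr was 9.20-fold higher per kilobase in KO adults than in KO neonates and 8.05-fold higher in WT adults than in WT neonates. Nr3c2, the mineralocorticoid receptor, averaged 18.8 CPM per kilobase in KO adults and 19.3 in WT adults, against 4.58 in KO neonates and 3.44 in WT neonates. Ppard averaged 66.2 in KO adults and 47.4 in WT adults, against 14.7 in KO neonates and 10.9 in WT neonates. Nr1h4 was the most abundant receptor with the opposite order, at 38.4 CPM per kilobase in KO adults and 27.3 in WT adults, against 89.8 in KO neonates and 76.3 in WT neonates. Esr1, the estrogen receptor, Pgr, the progesterone receptor, and Esrrb were under 1 CPM on average in both adult groups and between 1.37 and 2.37 CPM in both neonate groups.

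KO was set against WT with limma on log2(CPM + 1), over every gene that reached 1 CPM in 3 or more libraries, and genes whose p stayed under 0.05 after Benjamini-Hochberg adjustment were called. In adults 31 of the 37 genes passed this filter and 12 were called, 38.7% of those tested, against 19.4% of all 13463 genes tested. Of the 12, 5 were higher in KO adults, where 5.50% of all genes were called higher, and 7 were lower, where 13.9% of all genes were called lower. In neonates 35 of the 37 passed and 10 were called, 28.6% against 21.2% of all 14215 genes. Of the 10, 7 were higher in KO neonates, against 5.21% of all genes, and 3 were lower, against 16.0%. The genes left out were Nr4a3 and Rxrg at both ages, and Esr1, Esrrb, Nr2f1 and Pgr in adults. KO and WT pools did not overlap for 13 of the 31 genes in adults, 6 above and 7 below, against 38.3% of all genes (10.4% above and 27.8% below), and for 20 of the 35 in neonates, 8 above and 12 below, against 36.9% (8.62% above and 28.3% below). Nr2f1, counted among the 8 above in neonates, entered that test through the 3 KO pools and 1 WT pool, so the filter favoured that direction for it. Members that passed are the more abundant ones, and with a minimum of 5 CPM the shares were 12 of 26, or 46.2%, against 24.5% in adults, and 13 of 28, or 46.4%, against 26.2% in neonates. The family was also chosen with earlier results of these data known, so these shares are a description.

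The median difference was -0.04 over the 31 genes in adults, against -0.11 over all genes tested, and -0.08 over the 35 genes in neonates, against -0.11 over all genes. With trimmed mean of M-values (TMM) scaling, an alternative that centres the bulk of the genes, the median of all genes moved to 0.00 in adults and -0.02 in neonates. The split of the calls moved with it. In adults 9 genes were then called, against 16.3% of all genes: 6 were higher and 3 lower, against 9.94% of all genes higher and 6.37% lower. In neonates 10 were called, against 16.7% of all genes: 8 were higher and 2 lower, against 8.99% of all genes higher and 7.72% lower. Small differences are therefore read below beside their TMM result where it ended a call. Each group is 3 pools of 2 mice, so the p-values set a difference against the spread between pools, and the spread between single mice was not measured.

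**Figure D2:**
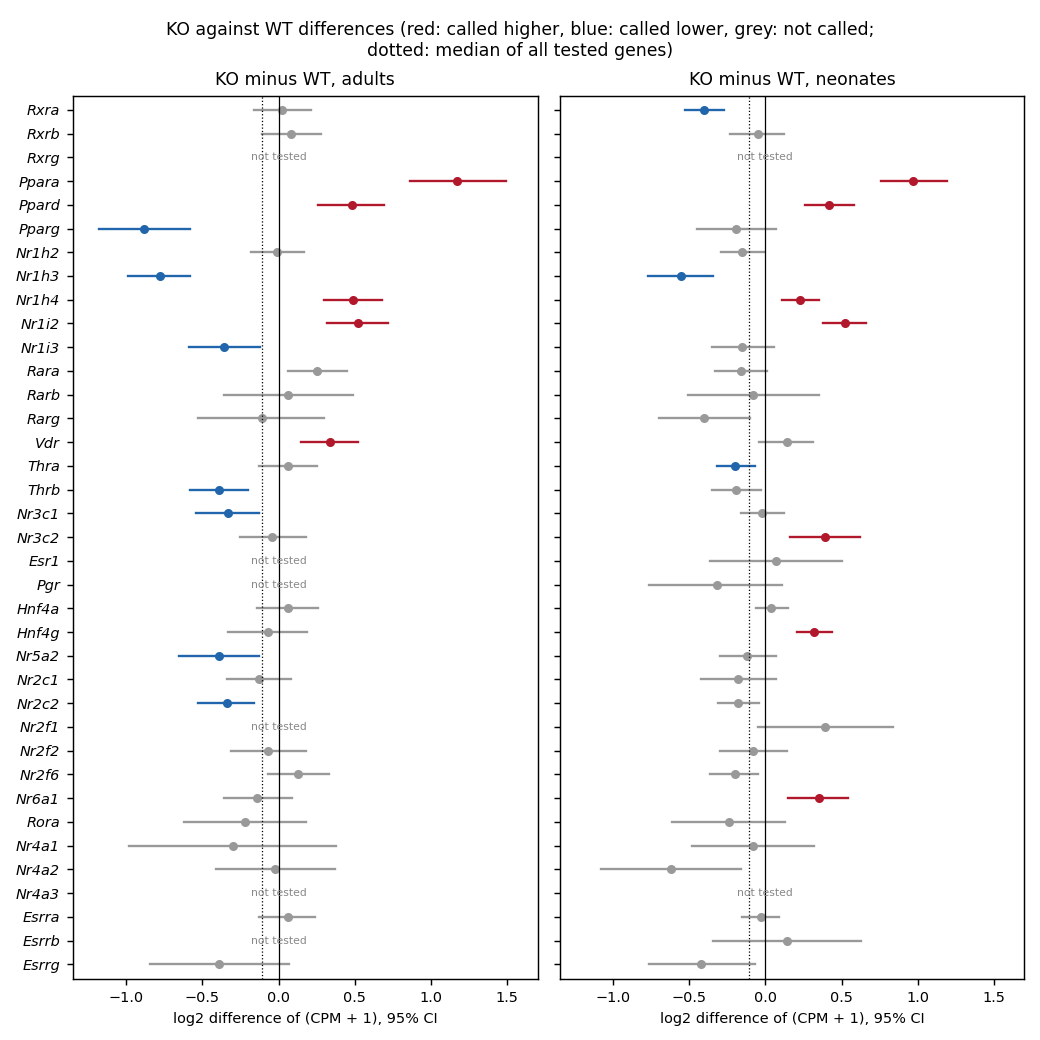
Log2 difference of (CPM + 1), KO minus WT, with its 95% confidence interval for each gene in adults (left) and neonates (right), red where called higher, blue where called lower and grey where not called. Ppara lies farthest to the right at both ages, at 1.17 in adults and 0.97 in neonates, and the dotted line marks the median of all tested genes at -0.11. With TMM scaling Nr1i3, Nr3c1, Nr5a2 and Nr2c2 in adults and Thra in neonates were no longer called.

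Among the fatty acid sensors, Ppara and Ppard rose in KO pools at both ages and Pparg fell in KO adults. Ppara encodes PPAR alpha, the receptor that turns on fatty acid oxidation in fasting. Ppara lies at chr15:85566206-85637281 on the plus strand in build mm9. It had 282, 219 and 298 CPM in the KO adult pools, against 138, 113 and 102 CPM in the WT adult pools, and 109, 84.6 and 86.3 CPM in the KO neonate pools, against 50.2, 49.4 and 41.0 CPM in the WT neonate pools. Every KO pool lay above every WT pool of its age. Ppara was 2.25-fold higher in KO adults (log2 difference 1.17, SE 0.140, adjusted p = 0.000782) and 1.96-fold higher in KO neonates (log2 difference 0.97, SE 0.101, adjusted p = 1.39e-05). Ppard (mm9 chr17:28369699-28438414, plus strand) encodes PPAR delta, a broadly expressed fatty acid receptor, and had 186, 237 and 214 CPM in the KO adult pools, against 137, 157 and 162 CPM in the WT adult pools. It had 48.7, 45.5 and 47.2 CPM in the KO neonate pools, against 34.2, 35.6 and 35.3 CPM in the WT neonate pools. The groups did not overlap at either age, with a 1.39-fold higher level in KO adults (log2 difference 0.48, SE 0.0983, adjusted p = 0.00530) and a 1.33-fold higher level in KO neonates (log2 difference 0.42, SE 0.0767, adjusted p = 0.000565).

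Pparg encodes PPAR gamma, the receptor best known for fat cell differentiation. It had 14.9, 10.1 and 12.3 CPM in the KO adult pools, against 22.0, 27.1 and 21.7 CPM in the WT adult pools, with no overlap. The level in KO adults was 0.544 times that in WT adults (log2 difference -0.88, SE 0.138, adjusted p = 0.00103). In neonates it had 18.8, 20.0 and 15.7 CPM in the KO pools and 24.7, 20.6 and 17.6 CPM in the WT pools, overlapping groups with a log2 difference of -0.19 (95% interval -0.45 to 0.07, adjusted p = 0.295). The 5 adipocyte markers summed to 19.0, 14.6 and 8.98 CPM in the KO adult pools and 24.7, 8.16 and 25.4 CPM in the WT adult pools, and of the 3 that could be tested none was called. In WT adults the pool with the most Pparg had the lowest adipocyte sum, and in KO adults the pool with the most Pparg had the highest; the part of adipocyte RNA in the result was not tested.

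The oxysterol receptors are LXR alpha, encoded by Nr1h3, and LXR beta, encoded by Nr1h2, and Nr1h3 was the one called. Nr1h3 (mm9 chr2:91024218-91035192, minus strand) had 32.9, 26.2 and 31.6 CPM in the KO adult pools, against 52.7, 53.4 and 51.6 CPM in the WT adult pools, and 16.4, 15.8 and 15.0 CPM in the KO neonate pools, against 25.7, 23.4 and 21.6 CPM in the WT neonate pools. All KO pools lay below all WT pools of their age. The ratio of KO to WT was 0.581 in adults (log2 difference -0.78, SE 0.0960, adjusted p = 0.000173) and 0.683 in neonates (log2 difference -0.55, SE 0.103, adjusted p = 0.000677). Nr1h2 had 66.3 to 75.7 CPM in KO adults and 69.2 to 71.7 CPM in WT adults, and 76.4 to 82.3 CPM in KO neonates and 83.6 to 91.4 CPM in WT neonates. Its log2 difference was -0.01 in adults (95% interval -0.18 to 0.17, adjusted p = 0.957) and -0.15 in neonates (95% interval -0.29 to -0.01, adjusted p = 0.111). On the deposited RPKM values the neonate difference of Nr1h2 was called (adjusted p = 0.0491). A difference between these paralogs was not tested.

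Fibroblast markers were lower in KO adults, where Nr1h3 and Pparg fell. In adults the 7 fibroblast markers summed to 499 to 531 CPM in KO pools, against 684 to 805 CPM in WT pools, and 4 of 7 were called lower, also with TMM scaling. The 7 myeloid markers found summed to 88.1 to 94.9 CPM in KO adults, against 93.9 to 129 CPM in WT adults, with 0 of 7 called. In neonates the myeloid markers summed to 205 to 247 CPM in KO pools, against 304 to 344 CPM in WT pools, and 4 of 7 were called lower, 1 of them with TMM scaling. The fibroblast markers summed to 1844 to 2051 CPM in KO neonates, against 2052 to 2664 CPM in WT neonates, with 4 of 7 called lower and 0 with TMM scaling. No fibroblast, myeloid or adipocyte marker found was at 0 in every library of a group. Their part in the falls of Nr1h3 and Pparg was not tested, and in whole tissue fewer cells of a type and less RNA per cell cannot be told apart.

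The bile acid and xenobiotic receptors Nr1h4 and Nr1i2 rose at both ages. Nr1h4 (mm9 chr10:88916979-88996367, minus strand), which encodes FXR, had 87.0, 78.8 and 85.0 CPM in the KO adult pools, against 55.6, 66.6 and 56.2 CPM in the WT adult pools, and 190.4, 186 and 209.8 CPM in the KO neonate pools, against 166, 167 and 166 CPM in the WT neonate pools. The pools did not overlap at either age. The level was 1.40-fold higher in KO adults (log2 difference 0.49, SE 0.0895, adjusted p = 0.00254) and 1.17-fold higher in KO neonates (log2 difference 0.23, SE 0.0585, adjusted p = 0.00751), and the difference between the ages was not called (log2 0.28, adjusted p = 0.146). The neonate call was lost without KO neonate pool 3 (adjusted p = 0.0545) and on the deposited RPKM values (0.116). The liver also expresses FXR and PXR, and its 5 markers summed to 3.29 to 4.27 CPM in KO adults, 5.86 to 7.14 CPM in WT adults, 320.1 to 343 CPM in KO neonates and 191 to 211 CPM in WT neonates. They did not move one way in neonates: Ttr averaged 303 CPM in KO and 142 CPM in WT neonates, Serpina1a 29.3 and 51.6 CPM, Alb 1.01 and 7.12 CPM, Ahsg 0.0561 and 1.43 CPM and Apoh 0.666 and 0.886 CPM. Of the 3 tested, Ttr was called higher and Serpina1a lower, and the part of liver RNA in these rises was not tested. Nr1i2 encodes PXR, the sensor of drugs and bile acids that induces Cyp3a genes, and lies at chr16:38248435-38294910 on the minus strand in mm9. It had 164, 146 and 169 CPM in the KO adult pools, against 122, 112 and 99.4 CPM in the WT adult pools, and 149, 171 and 156 CPM in the KO neonate pools, against 115, 112 and 103 CPM in the WT neonate pools. The pools did not overlap at either age, with a log2 difference of 0.52 in adults (SE 0.0920, adjusted p = 0.00192) and 0.52 in neonates (SE 0.0659, adjusted p = 9.53e-06).

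Nr1i3, which encodes the xenobiotic receptor CAR, had 41.5, 38.2 and 46.3 CPM in the KO adult pools, against 60.5, 56.1 and 46.2 CPM in the WT adult pools. The KO pool with the most Nr1i3 lay above the lowest WT pool. Its adult call (log2 difference -0.36, SE 0.108, adjusted p = 0.0349) ended with TMM scaling (adjusted p = 0.164), and without KO adult pool 1 (0.0890) or 2 (0.130) or WT adult pool 1 (0.116) or 2 (0.119). In neonates Nr1i3 had 22.5 to 27.0 CPM in KO pools and 26.6 to 31.0 CPM in WT pools and was not called (log2 difference -0.15, adjusted p = 0.318).

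Of the RXR partners, Rxra fell in KO neonates and no other was called. Rxra, the most abundant RXR gene per kilobase in all 4 groups (mm9 chr2:27532721-27618839, plus strand), had 81.4, 75.1 and 76.9 CPM in the KO neonate pools, against 103 CPM in each of the 3 WT neonate pools. It was 0.759 times as high in KO neonates (log2 difference -0.40, SE 0.0627, adjusted p = 0.000116) and all KO pools lay below all WT pools. In adults it had 137, 159 and 168 CPM in the KO pools and 156, 146 and 152 CPM in the WT pools, which overlapped (log2 difference 0.02, 95% interval -0.16 to 0.21, adjusted p = 0.876). Rxrb had 26.9 to 29.2 CPM in KO adults and 25.1 to 27.1 CPM in WT adults, and 30.2 to 33.2 CPM in KO neonates and 31.6 to 34.2 CPM in WT neonates. It was not called at either age, and Rxrg was too low to test.

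**Figure D3:**
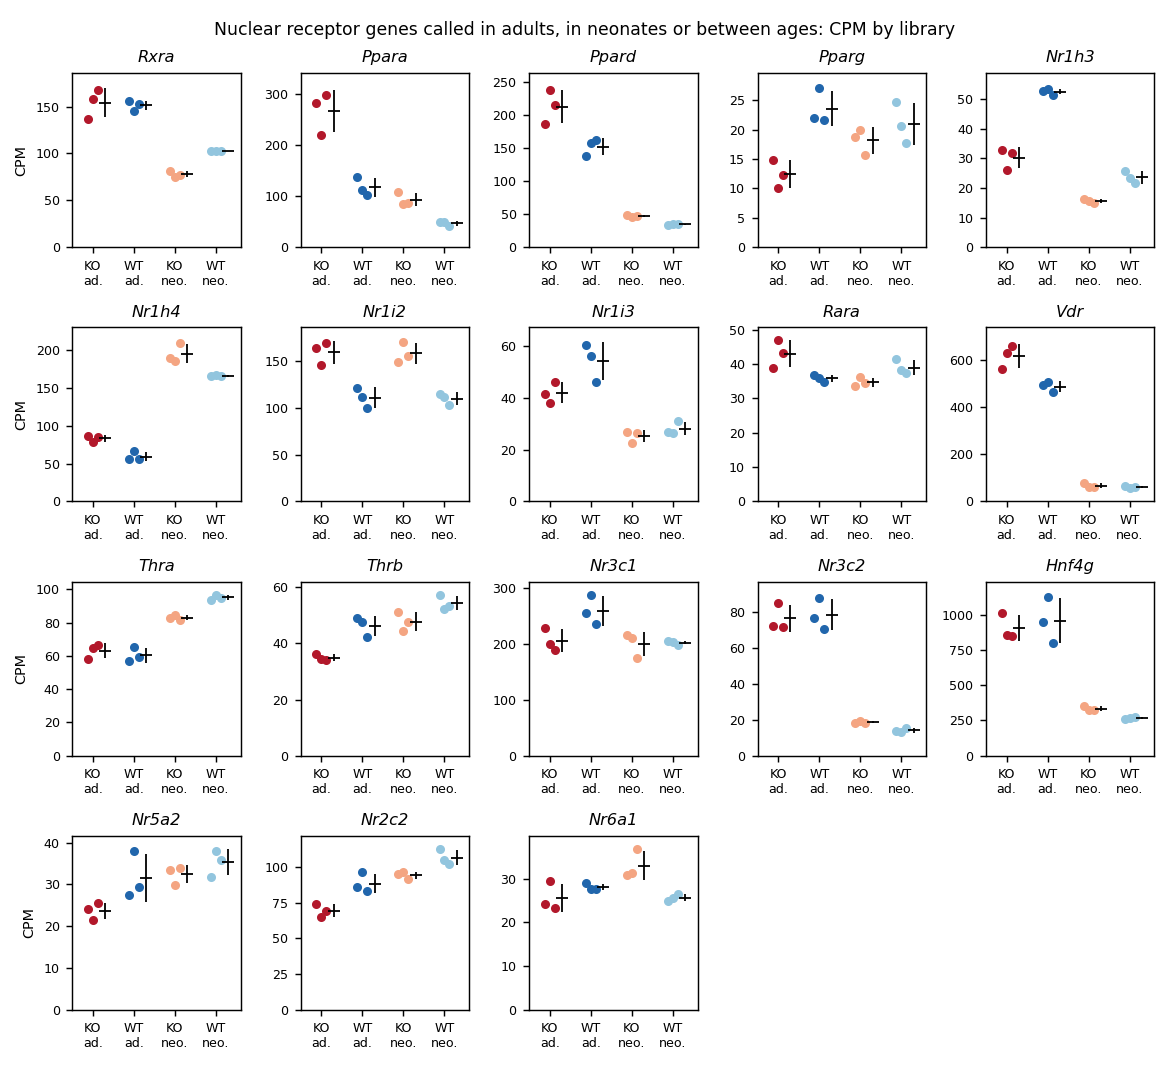
CPM in every library for the 18 genes called in KO against WT adults, in KO against WT neonates or between the ages; black marks are the mean and SD of 3 pools, and every vertical axis starts at 0. KO and WT pools of Ppara, Ppard, Nr1h3, Nr1h4 and Nr1i2 do not overlap at either age, whereas Rxra separates in neonates and overlaps in adults.

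Among the vitamin and thyroid hormone receptors, Vdr rose and Thrb fell in KO adults, and Thra fell in KO neonates, a call that ended with TMM scaling. Vdr had 563, 631 and 660.4 CPM in the KO adult pools, against 495, 507 and 464 CPM in the WT adult pools, and rose 1.26-fold (log2 difference 0.34, SE 0.0857, adjusted p = 0.0158). Without KO adult pool 2 or 3 its adjusted p was 0.0558 or 0.0863. In neonates it had 77.7, 61.7 and 62.2 CPM in the KO pools and 64.1, 57.9 and 60.2 CPM in the WT pools, overlapping groups that were not called (log2 difference 0.14, adjusted p = 0.273), although TMM scaling brought a call (adjusted p = 0.0474). Thrb, the beta thyroid hormone receptor, had 36.2, 34.6 and 34.1 CPM in the KO adult pools, against 49.0, 47.7 and 42.2 CPM in the WT adult pools, with no overlap. It fell in KO adults (log2 difference -0.39, SE 0.0879, adjusted p = 0.00794), although the call ended on the deposited RPKM values (adjusted p = 0.247) and with DESeq2 (0.0849). In neonates it had 51.3, 44.4 and 47.5 CPM in the KO pools and 57.4, 52.4 and 53.5 CPM in the WT pools, with an adjusted p of 0.0922.

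Thra, the alpha thyroid hormone receptor, had 82.8, 84.7 and 81.6 CPM in the KO neonate pools, against 93.7, 96.8 and 95.1 CPM in the WT neonate pools. The groups did not overlap, but the difference was small (log2 -0.20, SE 0.0615, adjusted p = 0.0281), and its call ended with TMM scaling (adjusted p = 0.325) and without KO neonate pool 1 (0.0570) or 3 (0.0804) or WT neonate pool 1 (0.0619), 2 (0.0954) or 3 (0.0644). In adults Thra had 58.2 to 66.7 CPM in KO pools and 56.8 to 65.6 CPM in WT pools (log2 difference 0.06, adjusted p = 0.651). Thra shares genomic sequence with an antisense neighbour, and the authors' counting used strand. Of the retinoic acid receptors, Rara was the most abundant per kilobase, with 39.0, 47.1 and 43.2 CPM in the KO adult pools, against 36.9, 35.9 and 34.8 CPM in the WT adult pools. The adult pools did not overlap, yet Rara was not called (log2 difference 0.25, SE 0.0910, adjusted p = 0.0657) except with TMM scaling (0.0172), edgeR (0.0222), DESeq2 (0.0265) or without KO adult pool 1 (0.0351). In neonates it had 33.6, 36.2 and 34.6 CPM in the KO pools, against 41.5, 38.2 and 37.3 CPM in the WT pools, below them without overlap and not called (log2 difference -0.16, adjusted p = 0.180).

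Rarb and Rarg, the other retinoic acid receptors, were low and not called. Rarb had 0.756 to 1.69 CPM in KO adults, 1.02 to 1.36 CPM in WT adults, 2.02 to 3.41 CPM in KO neonates and 2.25 to 3.63 CPM in WT neonates. Rarg had 2.58 to 5.28 CPM in KO adults, 4.08 to 4.25 CPM in WT adults, 6.95 to 9.50 CPM in KO neonates and 9.71 to 12.7 CPM in WT neonates. Its neonate pools did not overlap, with a log2 difference of -0.40 and an adjusted p of 0.0560, which passed without KO neonate pool 2 (0.0374) or WT neonate pool 3 (0.0435).

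Among the steroid hormone receptors, the glucocorticoid receptor Nr3c1 was the most abundant per kilobase in all 4 groups. It had 229, 199 and 189 CPM in the KO adult pools, against 255, 288 and 235 CPM in the WT adult pools, without overlap (log2 difference -0.33, SE 0.0963, adjusted p = 0.0287). The call ended with TMM scaling (adjusted p = 0.133) and without KO adult pool 2 (0.0899) or 3 (0.135) or WT adult pool 1 (0.0523) or 2 (0.130). In neonates it had 215, 210.0 and 175 CPM in the KO pools and 204, 204 and 198 CPM in the WT pools, with a log2 difference of -0.02 (95% interval -0.16 to 0.12). Nr3c2, the receptor for aldosterone, showed a call at the other age. It had 18.3, 19.2 and 18.4 CPM in the KO neonate pools, against 13.7, 13.0 and 15.4 CPM in the WT neonate pools, and rose 1.31-fold without overlap (log2 difference 0.39, SE 0.109, adjusted p = 0.0138), a call that ended without WT neonate pool 2 (0.0610) and on the deposited RPKM values (0.0971). In adults it had 72.6, 85.5 and 71.6 CPM in the KO pools and 77.1, 87.9 and 70.8 CPM in the WT pools (log2 difference -0.04, 95% interval -0.25 to 0.18, adjusted p = 0.826). Esr1 and Pgr were tested in neonates only, on 9 to 24 reads per library, and were not called.

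Of the HNF4 genes, Hnf4g rose in KO neonates. It had 355, 325 and 321 CPM in the KO neonate pools, against 257, 269 and 273 CPM in the WT neonate pools, 1.25-fold higher with no overlap (log2 difference 0.32, SE 0.0552, adjusted p = 0.000264). In adults it had 1013, 859 and 847 CPM in the KO pools and 952, 1122 and 799 CPM in the WT pools, which overlapped (log2 difference -0.07, 95% interval -0.33 to 0.19, adjusted p = 0.718). Hnf4a had 804, 1001 and 872 CPM in the KO adult pools and 844, 813 and 901 CPM in the WT adult pools, and 691, 697 and 635 CPM in the KO neonate pools and 669, 645 and 647 CPM in the WT neonate pools. It was not called at either age, with a log2 difference of 0.06 in adults (95% interval -0.14 to 0.26) and 0.04 in neonates (95% interval -0.06 to 0.15). Of the 10 epithelial markers, 4 were called higher and 1 lower in KO neonates, and 1 was called higher in KO adults; 2 of the 10, Vil1 and Cdx2, are also HNF4 targets below. The part of these markers in the rise of Hnf4g was not tested.

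Further orphan receptors were called at 1 age. Nr6a1, the germ cell nuclear factor, had 31.0, 31.3 and 36.9 CPM in the KO neonate pools, against 25.0, 25.6 and 26.6 CPM in the WT neonate pools, without overlap (log2 difference 0.35, SE 0.0923, adjusted p = 0.0107). That call ended without KO neonate pool 3 (adjusted p = 0.0739) and on the deposited RPKM values (0.135), and in adults the gene had 24.2, 29.4 and 23.3 CPM in the KO pools and 29.1, 27.7 and 27.7 CPM in the WT pools and was not called (adjusted p = 0.375). Nr2c2, the testicular receptor 4, had 74.4, 65.1 and 69.3 CPM in the KO adult pools, against 86.1, 96.5 and 83.2 CPM in the WT adult pools, all KO below all WT (log2 difference -0.34, SE 0.0863, adjusted p = 0.0151). With TMM scaling its adjusted p was 0.0814, and without KO adult pool 2 or 3 or WT adult pool 2 it was 0.0688, 0.0586 or 0.0701. In neonates Nr2c2 had 94.9, 96.6 and 91.6 CPM in the KO pools and 113, 105 and 102 CPM in the WT pools, at an adjusted p of 0.0518. That p passed with the 5 CPM minimum (0.0439) and the replicate block (0.0333).

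Nr5a2 encodes LRH-1, a receptor of the crypt epithelium that is also abundant in pancreatic acinar cells. It had 24.0, 21.4 and 25.4 CPM in the KO adult pools, against 27.4, 38.0 and 29.3 CPM in the WT adult pools, without overlap (log2 difference -0.39, SE 0.122, adjusted p = 0.0391). The 6 pancreatic acinar markers, of which Amy2a5 was at 0 in every library, summed to 1212, 224 and 1504 CPM in those KO pools and 1351, 4053 and 1550.2 CPM in those WT pools, and 0 of 5 tested were called. The KO pool with the least Nr5a2 had the lowest sum and the WT pool with the most had the highest; the part of pancreatic RNA in the result was not tested. The call ended with TMM scaling (adjusted p = 0.135) and without KO adult pool 1 (0.0850), 2 (0.136) or 3 (0.0736) or WT adult pool 2 (0.159). In neonates Nr5a2 had 33.5, 29.9 and 33.9 CPM in the KO pools and 31.9, 38.1 and 35.9 CPM in the WT pools, with an adjusted p of 0.392. The acinar markers summed to 705, 1303 and 456 CPM in those KO pools and 688, 1219 and 2308 CPM in those WT pools. There the KO pool with the least Nr5a2 had the highest sum, and the WT pool with the least had the lowest.

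The remaining orphan receptors were not called at either age. Nr2f6 was the most abundant of them per kilobase, with 62.7 to 76.8 CPM in KO adults and 61.1 to 68.9 CPM in WT adults, and with 43.4 to 44.9 CPM in KO neonates below 50.0 to 52.1 CPM in WT neonates (log2 difference -0.20, 95% interval -0.36 to -0.05), where its adjusted p rounded to 0.05 without passing it. Nr2c1 had 18.7 to 19.7 CPM in KO adults, 19.7 to 22.5 CPM in WT adults, 13.5 to 17.6 CPM in KO neonates and 16.6 to 19.5 CPM in WT neonates. The COUP-TF gene Nr2f2, known from stromal and vascular cells, had 12.3 to 14.2 CPM in KO adults, 12.8 to 14.9 CPM in WT adults, 22.7 to 25.0 CPM in KO neonates and 22.4 to 29.4 CPM in WT neonates. Its paralog Nr2f1 stayed under 2 CPM in every library, and Rora lay between 0.996 and 4.39 CPM over all libraries.

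The immediate early receptors of the NR4A group, which are induced within minutes of many stimuli, and the estrogen-related receptors were not called at either age. Nr4a1 had the highest average of the NR4A genes per kilobase, but its order with Nr4a2 was not resolved within the SD in adults. In KO adults the averages were 1.09 ± 0.386 for Nr4a1 and 1.04 ± 0.274 for Nr4a2, and in WT adults 1.47 ± 0.760 and 1.04 ± 0.129. Nr4a1 had 3.38, 3.06 and 1.59 CPM in the KO adult pools and 2.89, 5.77 and 2.25 CPM in the WT adult pools, which overlapped (log2 difference -0.30, adjusted p = 0.524). It had 5.05, 5.05 and 4.55 CPM in the KO neonate pools and 5.27, 7.17 and 3.67 CPM in the WT neonate pools, again with overlap (log2 difference -0.08, adjusted p = 0.808). Nr4a2 had 2.53, 1.44 and 1.01 CPM in the KO neonate pools and 2.46, 3.21 and 3.32 CPM in the WT neonate pools. The log2 difference was -0.62 with an adjusted p of 0.0527 on 6 to 30 reads. This p passed without KO neonate pool 1 (0.0147) and on the deposited RPKM values (0.0419). Nr4a3 stayed under 1 CPM in every library. Esrra had 221, 262 and 239.6 CPM in the KO adult pools and 241, 217 and 236 CPM in the WT adult pools, and 141, 148 and 135 CPM in the KO neonate pools and 143, 145 and 144 CPM in the WT neonate pools. Its intervals were among the narrowest of the uncalled genes, at -0.13 to 0.24 on the log2 scale in adults and -0.15 to 0.09 in neonates. Esrrg had 5.82 to 9.34 CPM in KO adults, 7.78 to 13.6 CPM in WT adults, 4.55 to 5.29 CPM in KO neonates and 5.45 to 7.60 CPM in WT neonates, where its adjusted p of 0.0798 passed without WT neonate pool 3 (0.0360).

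The authors' deposited table gives its own fold changes and false discovery rates for these genes, from a test that its headers do not name. At a false discovery rate under 0.05, 8 of the 37 genes passed in adults in the authors' deposited table, Ppara, Ppard, Nr1h4, Nr1i2, Rara and Vdr higher in KO and Pparg and Nr1h3 lower. In neonates 9 passed in the authors' deposited table, Ppara, Ppard, Nr1h4, Nr1i2, Nr3c2, Hnf4g and Nr6a1 higher and Rxra and Nr1h3 lower. Among the 37 genes, the largest entry in the authors' deposited table was Ppara, with a log2 fold change of 1.29 in adults and 1.10 in neonates. The fold change headers read ko vs. wt in adults and wt vs. ko in neonates, and the direction was taken from the levels instead. By that check the adult column holds WT minus KO, turned here to KO minus WT, and the neonate column holds KO minus WT.

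Whether the KO effect differed between the ages was tested in 1 fit of the 4 groups, by subtracting the neonate effect from the adult effect. Of the 35 genes tested, 2 were called, 5.71%, against 5.73% of all 14668 genes, so the share was near the background. Both were higher in adults, against 3.48% of all genes, and 0 were lower, against 2.26%; with edgeR 0 of the 35 were called, and with DESeq2 3 were. For Rxra the difference was 0.44 (SE 0.102, adjusted p = 0.0125), made of an effect near 0 in adults and a fall in neonates, and with edgeR it had an adjusted p of 0.0555. For Rara the difference was 0.43 (SE 0.117, adjusted p = 0.0315), from an effect of 0.25 in adults and -0.16 in neonates, neither of which was called alone. Leaving out 1 library ended the Rara call in 8 of 12 fits: without KO adult pool 2 (adjusted p = 0.0990) or 3 (0.0688), WT adult pool 2 (0.0532) or 3 (0.0521), KO neonate pool 1 (0.0829) or 3 (0.0633), or WT neonate pool 1 (0.0903) or 2 (0.0552). It was also lost with edgeR (adjusted p = 0.0597), DESeq2 (0.0711) and without the filter on low values (0.0506), and the deposited entry of Rara covers 3169 exonic bases in the adult table and 3372 in the neonate table. Pparg had the largest difference in the other direction, -0.67, with an adjusted p of 0.0519 that passed with TMM scaling (0.0408). For the 5 genes called at both ages the difference lay between -0.21 for Nr1h3 and 0.28 for Nr1h4, with adjusted p of 0.146 or more, and the intervals were -0.23 to 0.66 for Ppara, -0.17 to 0.32 for Ppard and -0.22 to 0.26 for Nr1i2.

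Genes known as targets of these receptors were examined from lists, with counts of the members called. The lists were chosen with earlier results of these data known, so their counts are a description and no independent support. Over all genes tested, 5.50% were called higher and 13.9% lower in adults, and 5.21% higher and 16.0% lower in neonates, so 1 lower call in a list of 6 to 9 genes is near the background. Of 12 PPAR targets tested, 8 were higher and 0 lower in KO adults, and 10 were higher and 0 lower in KO neonates. Slc25a20, the carnitine carrier of mitochondria, averaged 149.8 ± 3.93 CPM in KO adults and 48.9 ± 2.34 CPM in WT adults (log2 difference 1.60, adjusted p = 1.08e-07), and Pdk4, the kinase that spares glucose, averaged 342 ± 14.9 CPM in KO neonates and 124 ± 10.8 CPM in WT neonates (log2 difference 1.46, adjusted p = 2.56e-12). Ehhadh, a peroxisomal oxidation enzyme, rose at both ages, by 1.19 in adults (adjusted p = 7.04e-06) and 1.18 in neonates (adjusted p = 7.17e-11) on the log2 scale. Targets of LXR also rose while the LXR alpha gene itself fell: of 9 tested, 8 were higher and 1 lower in KO adults, and 6 were higher and 0 lower in KO neonates. The lower one, named after its values were seen, was Mylip, whose product degrades the LDL receptor (log2 difference -0.57, adjusted p = 0.00653). Srebf1, the lipid synthesis regulator, averaged 306 ± 45.6 CPM in KO adults and 70.0 ± 3.86 CPM in WT adults, and 248 ± 7.96 CPM in KO neonates and 82.7 ± 4.66 CPM in WT neonates (log2 differences 2.10 and 1.57, adjusted p = 1.08e-07 and 2.91e-13). The sterol exporter genes Abcg8 in adults (log2 difference 0.89, adjusted p = 1.52e-05) and Abcg5 in neonates (log2 difference 1.13, adjusted p = 2.88e-12) were next.

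Targets of the bile acid and xenobiotic receptors were called in part in adults. Of 5 FXR targets tested, 2 were higher in KO adults, or 4 with TMM scaling, and 4 were higher in KO neonates, with 0 lower at either age. Nr0b2, which encodes the repressor SHP, averaged 9.82 ± 2.89 CPM in KO adults and 1.58 ± 0.177 CPM in WT adults (log2 difference 2.04, adjusted p = 1.84e-05), and Slc51a, a subunit of the basolateral bile acid exporter, rose by 0.62 (adjusted p = 0.000550). In neonates the other subunit, Slc51b, rose by 0.48 (adjusted p = 6.09e-05) and Fgf15, the hormone that curbs bile acid synthesis, averaged 94.6 ± 16.8 CPM in KO pools and 42.7 ± 7.73 CPM in WT pools (log2 difference 1.13, adjusted p = 0.00976). All 10 PXR and CAR targets tested were higher in KO neonates, against 4 of 10 higher and 0 lower in KO adults. Cyp2b10 and Gsta1, at 4.72 and 5.72 CPM in KO neonates and 0.622 and 0.749 CPM in WT neonates, passed the filter through the KO pools, so the filter favoured that direction for them. The drug efflux pump gene Abcb1a averaged 315 ± 20.4 CPM in KO neonates and 64.4 ± 6.27 CPM in WT neonates (log2 difference 2.28, adjusted p = 4.18e-14), and Cyp3a25 averaged 298 ± 20.2 CPM in KO neonates and 62.1 ± 8.48 CPM in WT neonates (log2 difference 2.25, adjusted p = 3.08e-09). In adults Cyp3a25 rose by 1.42 (adjusted p = 0.000345) and the carboxylesterase gene Ces2a by 2.79 (adjusted p = 0.00268). The difference between the ages was itself called for 6 of these 10. The log2 difference was lower in adults than in neonates for 5 of them, Cyp3a11, Cyp3a13, Cyp3a25, Cyp2b10 and Abcb1a. For 2 of these it was below 0 in adults without a call, Cyp2b10 (-0.90, adjusted p = 0.0611) and Cyp3a13 (-0.20, adjusted p = 0.371). In neonates it was 1.82 for Cyp2b10 and 0.76 for Cyp3a13. The KO effect was larger in adults for Gstm1, a call that was lost with TMM scaling (adjusted p = 0.0552). Over all genes tested between the ages, 3.48% were called higher and 2.26% lower in adults minus neonates. Other lists went otherwise: 4 of 12 PPAR targets were called higher and 0 lower. Of 9 LXR targets 2 were higher and 1 lower, and of 5 FXR targets 2 were higher and 0 lower. Gstm1 was named after its values were seen, and the Cyp3a and Ces2 genes have near-identical copies, between which the counting could have split reads.

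**Figure D4:**
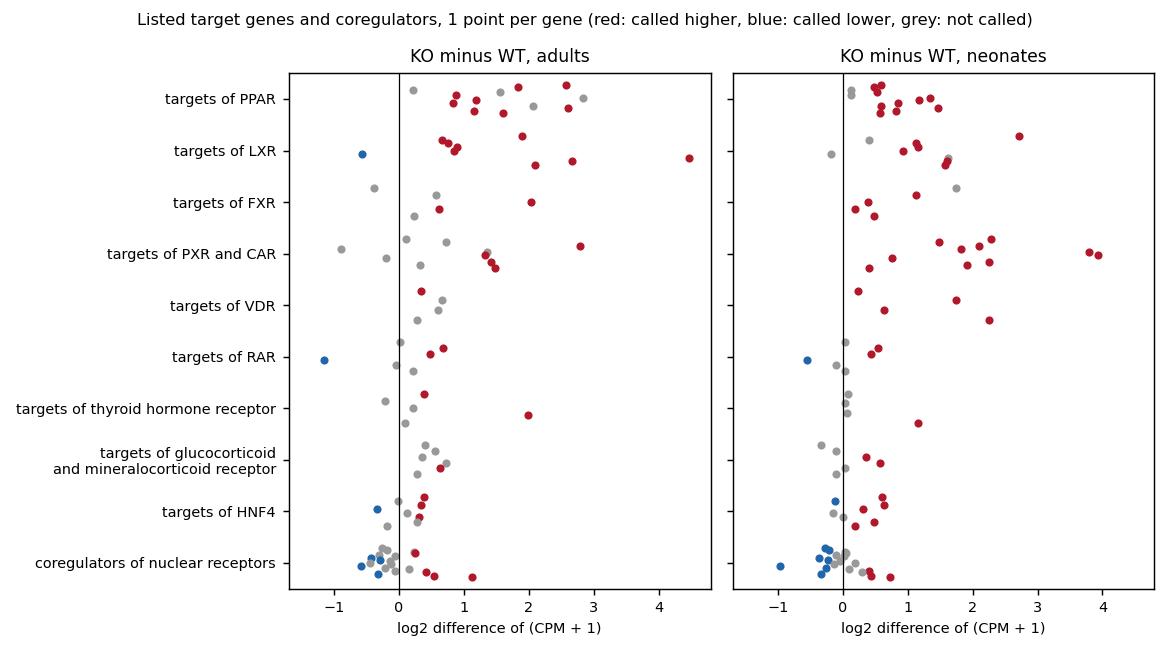
Log2 difference of (CPM + 1), KO minus WT, for each tested gene of the target and coregulator lists in adults (left) and neonates (right), 1 point per gene, red where called higher, blue where called lower and grey where not called. All 10 PXR and CAR targets lie to the right of 0 in neonates, of which Cyp2b10 and Gsta1 passed the filter through the KO pools, and 8 of 12 PPAR targets and 8 of 9 LXR targets are called higher in adults.

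Targets of the vitamin and hormone receptors were called at both ages. Of 4 VDR targets tested, 1 was higher in KO adults, Atp2b1 (log2 difference 0.34, adjusted p = 0.0391), and 4 were higher in KO neonates, where S100g, the calcium-binding protein calbindin-D9k, averaged 417 ± 20.0 CPM in KO pools and 124 ± 22.4 CPM in WT pools (log2 difference 1.75, adjusted p = 0.000633), and the manganese exporter gene Slc30a10 rose by 0.63 (adjusted p = 3.60e-07). Of 6 retinoic acid receptor targets, 2 were higher and 1 lower at each age. The lower one was Lrat, the retinol esterifying enzyme, which averaged 29.7 ± 2.87 CPM in KO adults and 67.7 ± 5.09 CPM in WT adults, and 178 ± 3.46 CPM in KO neonates and 264 ± 25.3 CPM in WT neonates (log2 differences -1.16 and -0.56, adjusted p = 7.99e-06 and 2.22e-06). Dhrs3, a retinaldehyde reductase, rose by 0.67 in adults (adjusted p = 0.000609) and 0.54 in neonates (adjusted p = 1.73e-05). Of the thyroid hormone receptor targets, 2 of 5 were higher in KO adults, Me1 (1.98, adjusted p = 0.0124) and Dio1 (0.38, adjusted p = 0.0146), and 1 of 4 in KO neonates, Me1 (1.16, adjusted p = 5.17e-06). Of 6 glucocorticoid and mineralocorticoid receptor targets, 1 was higher in KO adults, Tsc22d3 (0.63, adjusted p = 0.00160), and 2 in KO neonates, the kinase gene Sgk1 (0.57, adjusted p = 7.87e-06) and the sodium channel gene Scnn1a (0.35, adjusted p = 0.000924).

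Of 8 HNF4 targets, 3 were higher and 1 lower in KO adults, and 5 were higher and 1 lower in KO neonates; with TMM scaling the lower ones were lost, leaving 4 and 5 higher. In adults these were led by the apolipoprotein genes Apoc3 (log2 difference -0.34, adjusted p = 0.0151), which was the lower one (with TMM scaling, adjusted p = 0.117), and Apoa1 (0.38, adjusted p = 0.0252). In neonates Apoa1 averaged 18761 ± 439.5 CPM in KO pools and 12321 ± 641 CPM in WT pools (log2 difference 0.61, adjusted p = 1.02e-08), and Apob rose by 0.63 (adjusted p = 1.16e-08). Of 19 coregulators, 4 were higher and 4 lower in KO adults, or 6 and 2 with TMM scaling. In KO neonates 3 were higher and 7 lower, or 4 and 3 with TMM scaling. The targeted gene Ncor1 is 1 of the lower ones in each of these counts, a call that the design fixed in advance. Beside Ncor1 the strongest was Tbl1xr1, a subunit of the NCoR complex, which averaged 306 ± 14.4 CPM in KO adults and 140.3 ± 6.69 CPM in WT adults, and 170.1 ± 5.27 CPM in KO neonates and 103 ± 9.26 CPM in WT neonates (log2 differences 1.12 and 0.72, adjusted p = 1.70e-06 and 1.43e-07). The median log2 difference of these lists in adults and neonates was 1.58 and 0.59 for PPAR targets, 0.89 and 1.16 for LXR targets, 0.57 and 0.48 for FXR targets and 1.03 and 2.0 for PXR and CAR targets, against -0.11 for all genes tested at each age. For the other lists it was 0.47 and 1.19 for VDR targets, 0.12 and 0.03 for retinoic acid receptor targets, 0.21 and 0.07 for thyroid hormone receptor targets, 0.48 and -0.04 for glucocorticoid and mineralocorticoid receptor targets, 0.20 and 0.25 for HNF4 targets and -0.14 and -0.05 for coregulators.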

How the data were processed

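Bowtie 0.12.2 aligned reads to mouse build mm9, per the submitters' processing notes. HOMER (version not stated) assigned exon reads to genes by strand, keeping 1 entry for a gene, as per the file headers. Read columns deposited by the authors are a signal: each library's read counts over a common factor. Whole reads were recovered from 100% of values (tolerance 0.01 in deposited units). The authors deposited RPKM too, and their own log2 fold change with its FDR, a p-value adjusted by them.

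CPM is the deposited signal over the library sum, times 1e+06. As the values were normalized, limma 3.58.1 (R 4.3.3, trend and robust options) tested log2(CPM + 1), which understates changes of low genes. Alternatives were TMM scaling, a pseudocount of 0.25, no filter, a minimum of 5 CPM, log2(RPKM + 0.1), edgeR 4.0.16 and DESeq2 1.42.0 on recovered reads, a replicate block and leaving out each library. On those reads edgeR called 2056 genes in adults and 2183 in neonates. The limma steps were run on simulated counts as a check of the code. Those counts had a fixed spread and as many genes raised as lowered, so the run does not measure error rates in these data.

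The members and the target and marker lists were chosen with earlier results of these data known. Per-library values are given for every member called at either age or between ages and for the most abundant member per kilobase of each subfamily. For each target list, up to 2 genes with the lowest adjusted p per age have values. The listed genes Bco1 and Adgre1 were not matched.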

Additional observations from a re-analysis of the deposited data

Results flagged for a closer look

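The KO effect on Rxra differed between the ages by 0.44 on the log2 scale (adults minus neonates, adjusted p = 0.0125, limma): all KO neonate pools lay below all WT neonate pools and the adult pools overlapped. The KO effect on Rara differed by 0.43 (adjusted p = 0.0315), with all KO adult pools above all WT adult pools and all KO neonate pools below all WT neonate pools. The Rara call was lost in 8 of the 12 fits that left out 1 library (adjusted p = 0.0521 to 0.0990 there), with edgeR (0.0597), DESeq2 (0.0711), the replicate block (0.0564) and without the filter (0.0506), and the Rxra call was lost with edgeR (0.0555). These were picked out by the test of the difference between ages, and 5.73% of all genes tested passed that test.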

How the results depend on the processing

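No gene of the family changed direction under an alternative where it was called. Calls of Ppara, Ppard, Nr1h3 and Nr1i2 held at both ages under every alternative run. The calls of family genes, with limma 12 in adults (5 higher, 7 lower), 10 in neonates (7 higher, 3 lower) and 2 between ages (both higher), moved as follows. In adults 7 were called on deposited RPKM, and the lower calls were 3 with TMM scaling, 2 on RPKM, 3 with edgeR and 2 with DESeq2. In neonates 4 were higher on RPKM, and 6 were lower with the 5 CPM minimum, on RPKM and with the replicate block. Between ages 1 was called without the filter, 4 with the 5 CPM minimum, 0 with edgeR and 1 with the block; the higher ones were 1, 2, 0 and 1, with DESeq2 1, and the lower ones 1 with TMM scaling, 2 with the 5 CPM minimum and 2 with DESeq2. Leaving out 1 library gave 7 to 12 in adults (4 to 6 higher, 3 to 7 lower), 7 to 11 in neonates (5 to 7 higher, 2 to 4 lower) and 1 to 5 between ages (1 to 4 higher, 0 to 3 lower).

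Over all genes, 2611 were called in adults (741 higher, 1870 lower), 3009 in neonates (741 higher, 2268 lower) and 841 between ages (510 higher, 331 lower). In adults RPKM gave 1146 (415 lower), TMM scaling 1334 higher and 854 lower, edgeR 1175 and 881, and DESeq2 1125 and 699. In neonates DESeq2 gave 1575 (580 lower), TMM scaling 1278 higher and 1098 lower, edgeR 1255 and 928, and RPKM 439 higher. Between ages edgeR gave 298 higher and RPKM 102 lower. Leaving out 1 library gave 1281 to 2552 in adults (437 to 732 higher, 844 to 1840 lower), 2020 to 2581 in neonates (594 to 660 higher, 1426 to 1979 lower) and 548 to 1100 between ages (332 to 685 higher, 216 to 415 lower). The cause of these shifts was not tested.

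KO and WT pools share only a replicate number: their deviations correlated at 0.06, -0.21 and -0.12 in adults and 0.16, 0.14 and 0.03 in neonates. With the replicate block Nr1i3 (adjusted p = 0.0533) and Nr5a2 (0.0577) were lost in adults, Rara (0.0564) was lost between ages, and Rarg (0.0319), Nr2c2 (0.0333) and Nr2f6 (0.0418) were gained in neonates. Rxrg and Nr4a3, and in adults Esr1, Esrrb, Nr2f1 and Pgr, stood at too low a level to be tested.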
